A study of Mus musculus with 44 samples.

Results

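The interleukin-6 (IL-6) family and its signalling chain were followed across 5 groups of mouse back skin: the ligand genes Il6, Il11, Lif and Osm, the receptor genes Il6ra, Il11ra1, Osmr and Il6st, the transcription factor gene Stat3 and the feedback inhibitor gene Socs3. The 10 genes were taken by name, and all 10 were found among the 43411 genes listed and were in the 17037 genes tested. Bulk RNA sequencing was done on skin biopsies of 44 wild-type (WT) C57Bl/6 female mice, 8 weeks old at the start. Of these, 10 received saline, 10 received bleomycin for 2 weeks and 10 for 4 weeks, while 6 and 8 received bleomycin for 4 weeks and were then left untreated for 6 and 10 weeks (recovery groups). Bleomycin, a DNA-damaging drug used to induce skin fibrosis, was injected under the back skin daily as 100 uL at 1 U/mL by the labels, and 1 legend of the study gives another concentration. Recovery mice were older at harvest than bleomycin mice, and the harvest time of the saline mice is not given in the sources used here, so that time since the start and recovery cannot be told apart. Each mouse is a separate animal.

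The cytokines of the member genes signal through receptor complexes that share the chain gp130, the product of Il6st. Il6ra and Il11ra1 encode the binding chains for IL-6 and IL-11, and Osmr encodes the chain that pairs with gp130 for oncostatin M, the product of Osm. The complex activates JAK kinases, which phosphorylate STAT3. STAT3 in turn activates Socs3, whose product binds gp130 and the JAK kinases and shuts the signal off. In skin, these cytokines come from immune cells, keratinocytes and fibroblasts and are known for roles in inflammation, repair and fibrosis.

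The promoters of Socs3 and Il6, 2 members that rose with bleomycin, are shown because they carry letters read by the factors of this pathway and of inflammation. Promoters of 9 of the 10 members (all but Osm) were in the RefSeq table for GRCm38.p6, 11 promoters in all, each running from 250 bases before to 50 bases after a start site. The letters TTCNNNGAA, the form of site bound by STAT factors, were in 1 of these 11 promoters, that of Socs3, against 8.3% of 32851 mouse promoters. GGGA followed by any 4 bases and CC, a form of site bound by NF-kB, was in 6 of the 11, against 20.7%, and TGANTCA, a form bound by AP-1, was in 4 of the 11, against 7.81%. Both strands were searched, and TTCNNNGAA and TGANTCA read alike on both. A match is a description of the letters and not a site in use. The 250 bases before the start are printed 5′ to 3′ on the strand of the gene. For Socs3 they lie at chr11:117969367-117969616 on the minus strand, with the TTCNNNGAA match, 154 to 146 bases before the start, in capitals. For Il6 they lie at chr5:30012864-30013113 on the plus strand, with 2 overlapping NF-kB form matches, 1 on each strand, together 44 to 34 bases before the start, in capitals.
Socs3: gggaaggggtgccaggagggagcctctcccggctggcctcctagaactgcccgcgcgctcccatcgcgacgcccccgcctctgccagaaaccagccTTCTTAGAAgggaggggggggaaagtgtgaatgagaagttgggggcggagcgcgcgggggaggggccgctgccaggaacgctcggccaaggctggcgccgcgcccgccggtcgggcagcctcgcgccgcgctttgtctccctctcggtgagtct
Il6: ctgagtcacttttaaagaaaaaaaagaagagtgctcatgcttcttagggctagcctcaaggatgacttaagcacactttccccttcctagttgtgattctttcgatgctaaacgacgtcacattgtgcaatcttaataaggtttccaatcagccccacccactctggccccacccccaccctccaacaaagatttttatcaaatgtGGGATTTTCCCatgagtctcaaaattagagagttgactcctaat

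Depth ranged from 8509094 to 15285577 reads on genes per mouse (median 11310009). Values are normalized counts, that is, reads divided by 1 size factor per mouse, and 3 reads, the floor used here, were worth between 2.19 and 3.9 normalized counts. Keratinocyte, fibroblast and skeletal muscle markers were present in every group, and no marker on any of the 10 lists was at 0 in every mouse of a group. Saline mouse 1 and mouse 2 of bleomycin 2 weeks stood apart. The median correlation with the other mice of the group was 0.938 for mouse 2 of bleomycin 2 weeks and 0.942 for saline mouse 1, against 0.947 for the next lowest. Saline mouse 1 had the lowest level in its group for 8 of 10 marker lists and the highest for anagen hair follicle. Member calls that change without these mice are given both ways.

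Levels within the pathway were first ordered in saline skin, as normalized count per kb of exon. Il11ra1 stood highest at 408 ± 109 (SD, n = 10), followed by Il6st at 278 ± 59.2 and Stat3 at 223 ± 33.6. Il6ra (130 ± 28.8), Socs3 (101 ± 15) and Osmr (43.3 ± 7.94) lay in the middle. The ligands were lowest, with Lif at 12.1 ± 3.48, Osm at 3.04 ± 1.57, Il11 at 2.08 ± 1.19 and Il6 at 1.02 ± 0.745. The ranges overlapped for 4 neighbouring pairs in this order, namely Il6st and Stat3, Il6ra and Socs3, Osm and Il11, and Il11 and Il6, and they did not overlap for the other 5 pairs. After 4 weeks of bleomycin the order had Stat3 first at 298 ± 34.7, then Il6st at 280 ± 15.6, Il11ra1 at 274 ± 17.8 and Socs3 at 233 ± 52.9 (n = 10), with overlapping ranges among these neighbours.

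With bleomycin, Il6 and Osm rose about 4-fold or more at both times and Socs3 rose at both, Osmr rose at 4 weeks and Il11ra1 fell at 2 weeks, while the mean of Il6st lay near that in saline. A gene was called where the adjusted p (limma, Benjamini-Hochberg over all genes tested) was below 0.05 and the fold change above 1.5, and only called genes are said to rise or fall. At 2 weeks 3 members rose (Il6, Osm, Socs3) and 1 fell (Il11ra1), that is 4 of 10 members against 16.7% of all genes tested. At 4 weeks 4 rose (Il6, Osm, Socs3, Osmr) and none fell, against 17.9% of all genes. Without the 2 mice that stood apart, Il11ra1 at 2 weeks and Osmr at 4 weeks were no longer called. Over all 17043 genes tested in those 42 mice, 2658 were called at 2 weeks and 2887 at 4 weeks. The median log2 fold change of the members was 0.31 at 2 weeks and 0.41 at 4 weeks, beside 0.003 and -0.001 over all genes tested. Both comparisons share the saline mice.

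**Figure D1:**
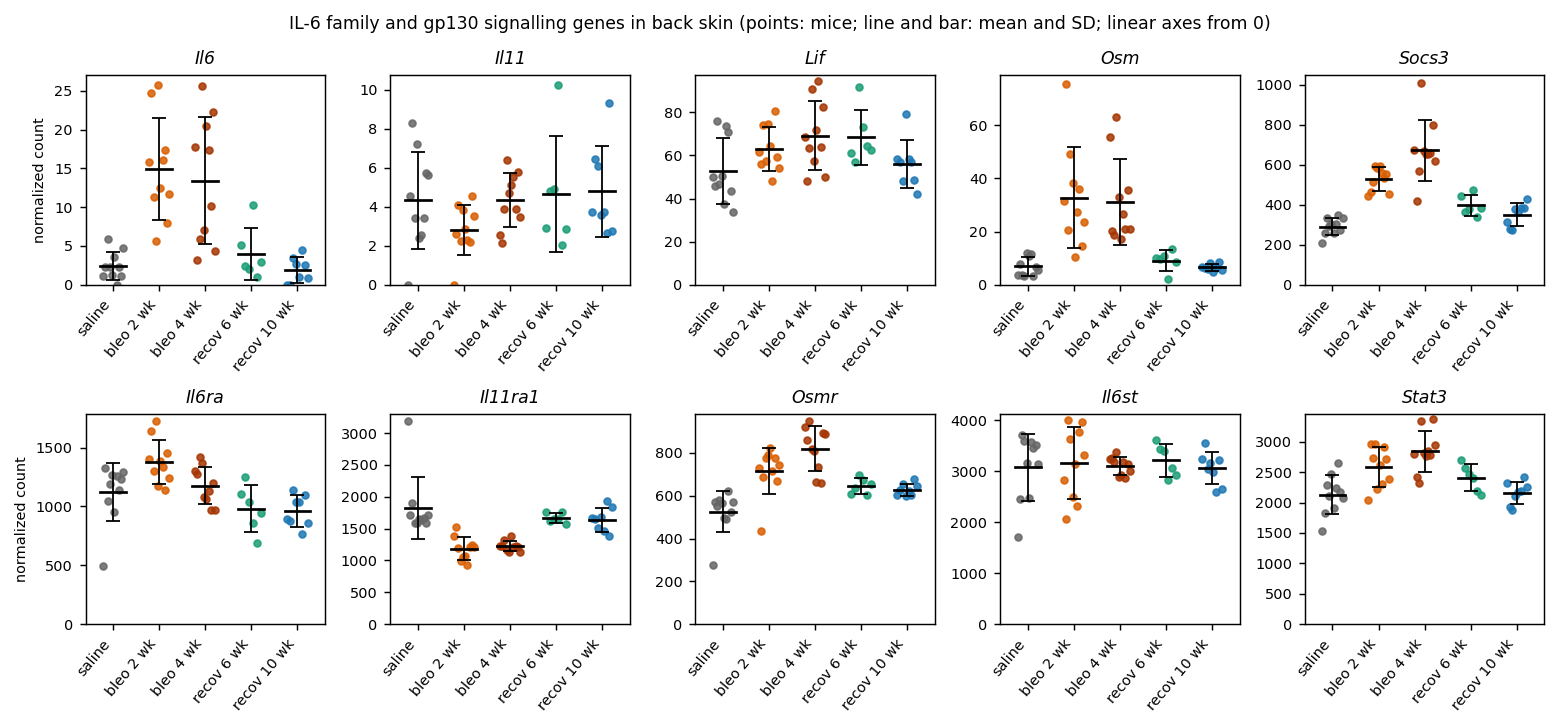
Normalized counts of the 10 members in each mouse by group (linear axes from 0; points are mice, lines and bars the mean and SD; n = 10, 10, 10, 6 and 8). Socs3 lay above every saline mouse in all 20 bleomycin mice, and Il11ra1 lay below every saline mouse in the same 20.

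Il6 encodes IL-6, the founding cytokine of the family. It was near the limit of detection in saline skin, at 0, 2.28 and 5.92 normalized counts (lowest, median and highest of 10 mice) and 0 to 5 reads. It was 5.61, 14.2 and 25.8 at 2 weeks and 3.2, 13.7 and 25.6 at 4 weeks, with 5 to 27 and 3 to 28 reads. At 2 weeks 9 of 10 mice exceeded every saline mouse and at 4 weeks 7 of 10 did, so the groups overlapped slightly. Il6 rose by 2.27 ± 0.37 (SE) on the log2 scale at 2 weeks (4.82-fold; limma adjusted p = 3.68e-06) and by 1.98 ± 0.37 at 4 weeks (3.96-fold; adjusted p = 3.37e-05). Since 1 was added to each normalized count before the log, folds of genes with few reads come out too small. Over the alternatives, the log2 difference of Il6 at 2 weeks ran from 2.13 to 2.95 (adjusted p from 3.22e-07 to 0.0002). Its saline mean of 2.47 lay below the filter of 3, so it entered the test through its level in bleomycin skin.

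Osm encodes oncostatin M, made largely by myeloid and T cells, and lies 16531 bases from Lif on chromosome 11. It was 3.42, 6.25 and 12.1 normalized counts in saline mice, 10.6, 29.6 and 75.4 at 2 weeks, and 17.1, 23.9 and 63.2 at 4 weeks (n = 10 each). At 4 weeks every mouse exceeded every saline mouse, and at 2 weeks 9 of 10 did. Groups that did not overlap with the first higher made up 4.31% of all genes tested at 4 weeks. Osm rose by 2.03 ± 0.29 at 2 weeks (4.1-fold; limma adjusted p = 2.48e-07) and by 2.02 ± 0.29 at 4 weeks (4.06-fold; adjusted p = 2.93e-07).

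Lif and Il11, the other 2 ligand genes, were not called. Lif, the leukaemia inhibitory factor gene, was 33.8, 48.4 and 75.8 normalized counts in saline mice and 48.1, 66.1 and 94.5 at 4 weeks. Its difference at 4 weeks was 0.39 ± 0.14, with an adjusted p of 0.0217 (limma) and a fold change of 1.31, below the fold threshold. Il11, which encodes a cytokine linked to fibrosis, stayed at 0 to 10.3 normalized counts in all 44 mice. Its difference from saline was -0.4 at 2 weeks (95% interval -1.01 to 0.22) and 0.16 at 4 weeks (-0.46 to 0.77), intervals wide enough to hold changes past the fold threshold, and the 4-week sign turned (-0.09) without the 2 mice that stood apart. At a few reads per mouse, changes of Il11 smaller than these were not detectable at this depth.

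**Figure D2:**
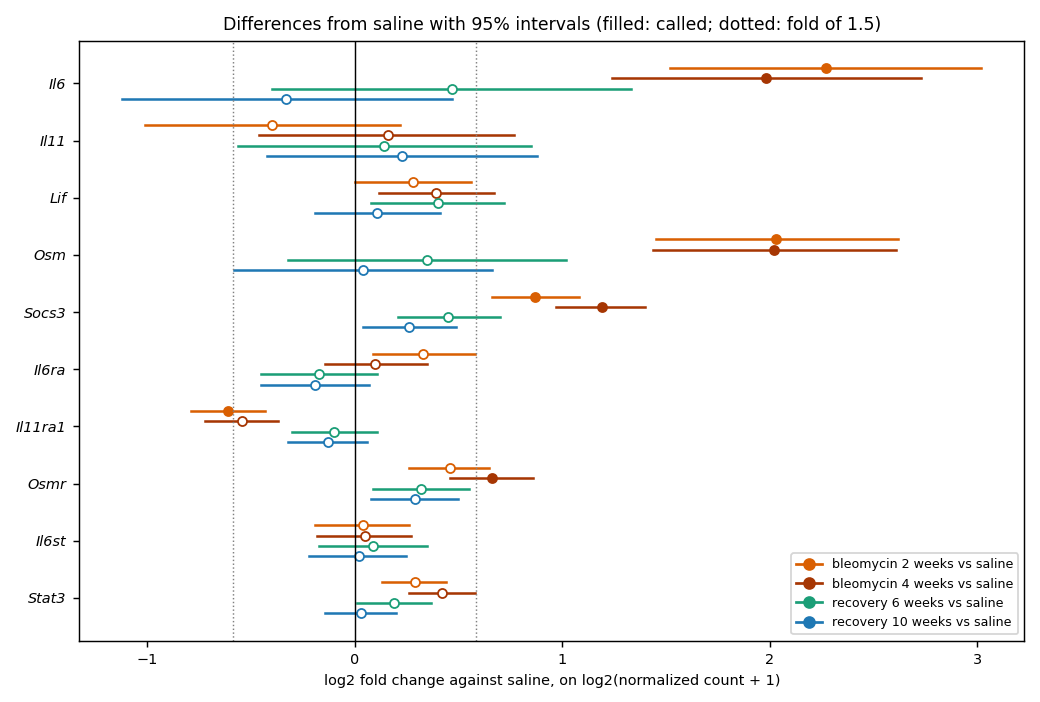
Log2 fold changes from saline of the 10 members (limma estimate with 95% interval) for the 4 comparisons; filled points were called and dotted lines mark a fold of 1.5. Il6 and Osm lie between 1.98 and 2.27 in both bleomycin groups, and no point of the recovery groups is filled.

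Among the receptors, Osmr and Il11ra1 moved in opposite directions. Osmr was 277, 559 and 624 normalized counts in saline mice, 437, 736 and 823 at 2 weeks, and 661, 839 and 949 at 4 weeks. Every 4-week mouse lay above every saline mouse, as for 4.31% of all genes tested. Osmr rose by 0.66 ± 0.1 at 4 weeks (1.58-fold; limma adjusted p = 6.31e-07), and its difference at 2 weeks was 0.46 ± 0.1 (1.37-fold; adjusted p = 0.000259), under the fold threshold. Without saline mouse 1 and 2-week mouse 2, the 4-week difference was 0.56 (1.48-fold; adjusted p = 1.67e-10) and it was no longer called on fold.

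Il11ra1 was 1583, 1665 and 3191 normalized counts in saline mice, 927, 1204 and 1519 at 2 weeks, and 1134, 1216 and 1391 at 4 weeks. All 20 bleomycin mice lay below the lowest saline mouse, whereas groups that did not overlap with the first lower made up 1.33% of genes at 2 weeks and 2.21% at 4 weeks. Il11ra1 fell by 0.61 on the log2 scale at 2 weeks (SE 0.09; limma adjusted p = 3.14e-07). At 4 weeks its difference was -0.54 ± 0.09 (adjusted p = 2.83e-06), just short of the fold threshold. The highest value, in saline mouse 1, weighed on these folds, and without the 2 mice that stood apart the 2-week difference was -0.56 (0.679-fold; adjusted p = 8.8e-10) and not called on fold. Il11ra2, a near-identical copy of the gene, shares sequence with Il11ra1, so the split of reads between them is uncertain, and 8 exonic bases of Il11ra1 are shared with Ccl27a on the other strand.

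Il6ra and Il6st changed little. Il6ra was 495, 1211 and 1329 normalized counts in saline mice and 1136, 1361 and 1725 at 2 weeks, where 6 of 10 mice exceeded every saline mouse. Its 2-week difference was 0.33 ± 0.12 (limma adjusted p = 0.0274), below the fold threshold, and 0.18 (adjusted p = 0.135) without the 2 mice that stood apart. Il6st was 1717, 3311 and 3707 in saline mice, 2063, 3232 and 4015 at 2 weeks, and 2869, 3167 and 3372 at 4 weeks. The groups overlapped almost fully. The difference of Il6st was 0.04 at 2 weeks (95% interval -0.19 to 0.26) and 0.05 at 4 weeks (-0.18 to 0.27), and neither interval reached a fold of 1.5. The 4-week sign turned (-0.04) without the same 2 mice.

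Downstream of gp130, Socs3 rose at both times. It was 207, 298 and 350 normalized counts in saline mice, 442, 542 and 596 at 2 weeks, and 418, 656 and 1012 at 4 weeks. No bleomycin mouse overlapped with the saline mice, whereas 3.44% of genes tested had all 2-week mice above all saline mice. At 4 weeks that share was 4.31%. Socs3 rose by 0.87 ± 0.1 at 2 weeks (1.82-fold; limma adjusted p = 6.46e-09) and by 1.19 ± 0.1 at 4 weeks (2.27-fold; adjusted p = 1.72e-12). Stat3, the gene of the transcription factor itself, was 1535, 2144 and 2647 in saline mice, 2045, 2669 and 2971 at 2 weeks, and 2330, 2807 and 3370 at 4 weeks. Its differences of 0.29 ± 0.08 and 0.42 ± 0.08 had limma adjusted p of 0.00381 and 3.23e-05 but stayed under the fold threshold. STAT3 acts through its phosphorylation, which RNA levels do not measure.

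Without the 2 mice that stood apart, the differences of Il6 were 2.13 and 1.93 at 2 and 4 weeks, those of Osm 1.81 and 1.95, and those of Socs3 0.83 and 1.13, all of them still called.

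Between 2 and 4 weeks of bleomycin no member was called, against 2.35% of all genes tested. At an unadjusted p under 0.05 limma had 2 of 10 members, and edgeR and DESeq2 on the recovered reads called 0. The share of all genes at that unadjusted cut-off is not given here, so no excess is read from this count. The largest of these differences relative to its error was that of Socs3, at 0.32 (limma adjusted p = 0.0602), named here after its values were seen.

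After treatment stopped, Il6, Osm and Socs3 fell again. At 6 weeks of recovery Il6 was 1.03, 2.65 and 10.3 normalized counts (n = 6), Osm was 2.06, 9.92 and 13.3, and Socs3 was 339, 380 and 475. Against 4 weeks of bleomycin, these 3 of 10 members fell, where 7.14% of all genes did and 11.9% were called in either direction. Il6 fell by 1.52 on the log2 scale (limma adjusted p = 0.00719, from 0.00195 to 0.0624 over the alternatives), a call that was lost with a pseudocount of 0.1. Osm fell by 1.67 (adjusted p = 0.000183) and Socs3 fell by 0.73 (adjusted p = 9.07e-06). Every 6-week recovery mouse had less Osm than every 4-week bleomycin mouse, as for 5.77% of all genes. Il11ra1 was 1572, 1653 and 1757 in these mice, above every 4-week bleomycin mouse (4.44% of genes were), with a difference of 0.45 (adjusted p = 0.000846) that was under the fold threshold.

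At 10 weeks of recovery (n = 8) Il6 was 0, 1.75 and 4.43 normalized counts, Osm was 4.7, 6.34 and 8.51, and Socs3 was 272, 371 and 430. These 3 members fell against 4 weeks of bleomycin as well, where 9.1% of all genes fell and 15.8% were called in either direction. Il6 fell by 2.31 (limma adjusted p = 9.68e-06), Osm fell by 1.98 (adjusted p = 1.82e-06) and Socs3 fell by 0.92 (adjusted p = 8.75e-09). Osmr differed from 4 weeks of bleomycin by -0.34 at 6 weeks (adjusted p = 0.0245) and by -0.37 at 10 weeks (adjusted p = 0.00462), both under the fold threshold. These comparisons share the 4-week mice with each other.

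Against saline, 0 of 10 members were called at 6 weeks of recovery, where 5.04% of all genes were, and 0 at 10 weeks, where 3.05% were. At an unadjusted p under 0.05 limma had 4 and 2 members, and edgeR and DESeq2 called 0 at both times. The shares above are for called genes and not for that unadjusted cut-off, so no excess is read from these 2 counts. Socs3 was the member nearest to a call at 6 weeks, 0.45 ± 0.12 above saline (limma adjusted p = 0.0131, 1.37-fold), with 5 of 6 mice above every saline mouse. At 10 weeks the difference of Socs3 was 0.26 ± 0.11 (adjusted p = 0.161). Osmr differed from saline by 0.32 and 0.29 at 6 and 10 weeks (limma adjusted p = 0.0621 and 0.0933). Without the 2 mice that stood apart, these were 0.23 and 0.19 (adjusted p = 0.0249 and 0.0459). Il6ra differed by -0.17 and -0.19 (adjusted p = 0.477 and 0.474), and by -0.3 and -0.31 without those mice (adjusted p = 0.0598 and 0.0344). All of these were under the fold threshold. Intervals for Il6 (-0.4 to 1.33 at 6 weeks, -1.12 to 0.47 at 10 weeks) held changes past the fold threshold. A lasting change of Il6 of that size could thus not be told from none. The same held for Osm (-0.32 to 1.02 and -0.58 to 0.66) and Il11 (-0.56 to 0.85 and -0.42 to 0.88). At 6 weeks the intervals of Lif (0.08 to 0.72) and Socs3 (0.21 to 0.7) also passed the threshold. Lif differed from saline by 0.4 there (limma adjusted p = 0.105). Between the recovery groups 0 members were called, against 0.088% of all genes, with 0 at an unadjusted p under 0.05 and 0 by edgeR and DESeq2.

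The wider pathway was followed in 5 lists that include the members, of which 59 genes were tested. At 2 weeks 15 of the 59 rose and 5 fell, and at 4 weeks 16 rose and 2 fell, against 9.3% rising and 7.43% falling at 2 weeks and 10.5% and 7.37% at 4 weeks over all genes. These shares over all genes are the ones to set beside the counts of each list below. At 2 weeks edgeR and DESeq2 on the recovered reads each called 19 of the 59, where limma called 20. The median log2 fold changes of the lists were 0.17 and 0.15. At 6 weeks of recovery 1 of the 59 was called against saline (Cntf), beside 5.04% of all genes. At 10 weeks 2 of the 59 were (Cntf and Fos), beside 3.05% of all genes. These calls were all higher than saline.

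Of the 10 ligand genes tested, 5 rose and 1 fell at 2 weeks, and 4 rose and 1 fell at 4 weeks. Besides Il6 and Osm, Il27 and Ebi3, which encode the subunits of IL-27, rose at 2 weeks by 1.66 (limma adjusted p = 0.000809) and 0.94 (adjusted p = 0.00186). Il27 was at 0, 1.25 and 4.83 normalized counts in saline mice and 2.97, 5.81 and 28.6 at 2 weeks, and its saline mean of 1.91 lay below the filter of 3, which it passed through its 2-week mean of 8.91. Its 4-week difference of 0.72 was not called (adjusted p = 0.154), whereas Ebi3 rose by 0.99 (adjusted p = 0.00111). Cntf, the ciliary neurotrophic factor gene, rose by 0.67 and 1.1 and was called in both recovery groups as well (0.79 and 0.85), but 847 of its 1073 exonic bases are shared with Zfp91 on the same strand, so its reads cannot be assigned to it alone.

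Among the 11 receptor and shedding protease genes, Cntfr, Il11ra2 and Il11ra1 fell at 2 weeks, and Osmr rose and Cntfr fell at 4 weeks. Cntfr, the receptor gene for CNTF, was 27.4, 181 and 644 normalized counts in saline mice and 24.1, 31.7 and 70.8 at 2 weeks. It fell by 2.22 (limma adjusted p = 3.56e-06) and by 1.58 at 4 weeks (adjusted p = 0.000515). Il11ra2 was 39.8, 56.6 and 96.6 normalized counts in saline mice and 0, 41 and 50.9 at 2 weeks, with 1 mouse of that group at 0 reads. It fell by 1.03 at 2 weeks (limma adjusted p = 0.0324), a difference on which that 1 mouse weighed. Its 4-week difference was -0.32 (adjusted p = 0.555).

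Among the 8 feedback inhibitor genes, Socs3 and Ptpn6 rose at both times and no other was called. Ptpn6 encodes the phosphatase SHP-1 of blood cells, and it rose by 1.08 (adjusted p = 9.14e-08) and 0.65 (adjusted p = 0.0004).

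Of 18 genes known as STAT3 targets, 7 rose and 1 fell at 2 weeks, against 9.3% and 7.43% of all genes. At 4 weeks 8 rose and none fell, against 10.5% and 7.37%. Saa3, an acute-phase protein gene, was 1.15, 3.57 and 5.63 normalized counts in saline mice and 259, 1109 and 17304 at 2 weeks. Lcn2, the lipocalin-2 gene, was 11.9, 24.1 and 34.7 and then 168, 564 and 6035. Neither gene's groups overlapped, and 3.44% of all genes tested had all 2-week mice above all saline mice. Saa3 rose by 8.49 (limma adjusted p = 5.19e-16), Lcn2 by 4.94 (adjusted p = 3.77e-13) and Timp1, an inhibitor of matrix metalloproteases, by 2.69 (adjusted p = 3.78e-13) at 2 weeks. At 4 weeks the same 3 genes rose by 6.45, 3.64 and 2.38. Several of these genes are also induced by other inflammatory factors, and 10 of the 18 were not called at 2 weeks. Saa3 was also the only list gene called between 2 and 4 weeks, falling by 2.03 (adjusted p = 0.0287), a call that was lost without the 2 mice that stood apart, with a pseudocount of 0.1 and in a fit of those 2 groups.

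**Figure D3:**
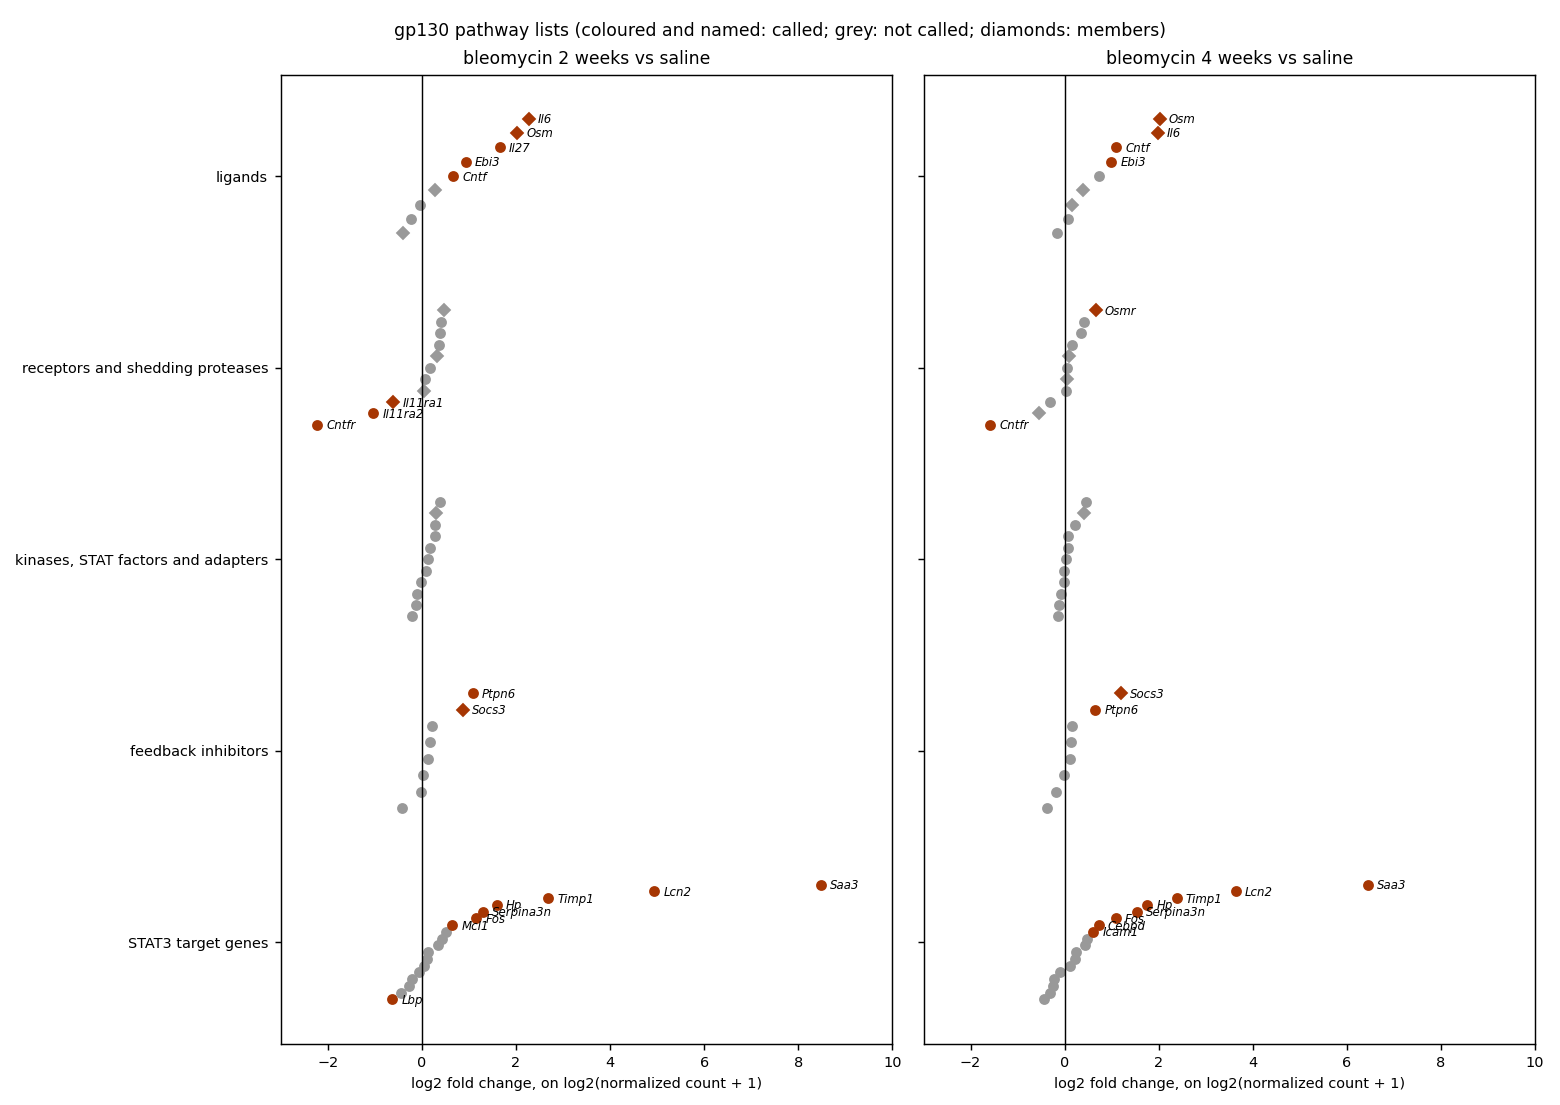
Log2 fold changes from saline of 57 of the 59 pathway genes by list at 2 weeks (left) and 4 weeks (right) of bleomycin; coloured and named points were called and diamonds are members. Saa3 and Lcn2 lie farthest to the right in both panels, and Cntfr farthest to the left.

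Several lists of cell type markers differed between these groups. Over all genes tested, 9.3% rose and 7.43% fell at 2 weeks, and 10.5% and 7.37% at 4 weeks. Neutrophil markers rose in 5 of 5 genes at 2 weeks and 3 of 5 at 4 weeks, and their summed normalized counts were 94 to 213 in saline mice, 397 to 4830 at 2 weeks and 331 to 1440 at 4 weeks. Macrophage markers rose in 3 of 6 genes and fell in 1 (Cd163) at each time, with sums of 8297 to 22651, 19256 to 36141 and 18111 to 33059. Mast cell markers rose in 5 of 5 genes at both times, T cell markers in 4 of 6 at 2 weeks and 1 of 6 at 4 weeks, and endothelial markers in 3 of 5 at both times. Skeletal muscle markers rose in 1 of 5 genes at both times, while the median log2 fold change of that list was -0.05 and -0.12. Adipocyte markers fell in 2 of 5 and 3 of 5. Anagen hair follicle keratins fell in 5 of 5 genes at both times, from sums of 1972 to 203710 in saline mice to 31.8 to 1827 at 2 weeks and 27.9 to 4584 at 4 weeks. Fibroblast markers fell in 3 of 5 genes at 2 weeks and 1 of 5 at 4 weeks, with list medians of -0.71 and 0.18. The 4 keratinocyte markers had a median log2 fold change of 0.1 at both times. In these bulk samples, fewer cells of a type and less RNA per cell cannot be told apart. The part of these cell types in the changes of Il6, Osm, Socs3, Osmr and Il11ra1 was not tested.

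**Figure D4:**
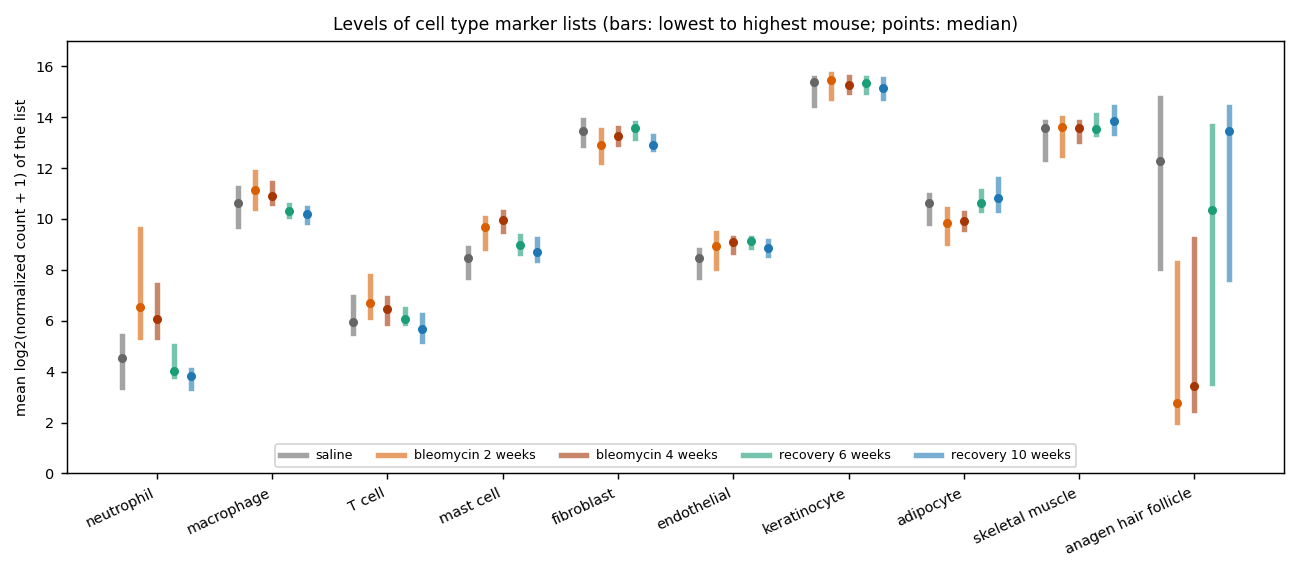
Mean log2(normalized count + 1) of 10 cell type marker lists by group; bars run from the lowest to the highest mouse and points are medians. The neutrophil median was 4.53 in saline, 6.54 and 6.05 in the bleomycin groups and 4.03 and 3.82 in recovery, and the hair follicle median was 12.28, 2.77, 3.42, 10.34 and 13.47.

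Genes whose level varied most like a member's were found by Pearson's r of log2(normalized count + 1) over the 44 mice after the group means were taken off. The points share libraries, so these values are descriptions. For Il6 they were BC100530 and Serpinb3a, both at 0.57, and for Osm H2-Aa (0.7) and Skap1 (0.69). Lif varied most like Stum (0.6) and Mars (0.52). For Il11 they were Slc23a4 (0.67) and Tor1aip1 (0.64), on few reads. Il6ra varied most like Ikbke (0.87) and Rasa3 (0.82), and Il6st like Lama4 (0.89) and Nek9 (0.88). Socs3 varied like Rps6ka4 (0.74), and Stat3 like Mvp (0.84) and Abcc3 (0.82). Osmr varied most like Galnt7 (0.86) and Serinc1 (0.81), and Il11ra1 like Kctd6 (0.77) and Nudt13 (0.75). Without the 2 mice that stood apart, these last 4 values were 0.58, 0.49, 0.52 and 0.42, those of Il11 were 0.51 and 0.45, that of Il6ra with Rasa3 was 0.66, and the others moved by less.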

How the data were processed

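RNA was taken from back skin biopsies of 44 mice and sequenced from stranded mRNA libraries. Per the submitters' processing notes, the authors aligned reads to mm10 with STAR 2.4.0 and normalized them with DESeq2 1.12.3. The deposited signal is a table of normalized counts, reads per gene divided by 1 size factor per mouse. The counting tool, its strand setting and annotation are not given in the sources used here, so overlapping genes (Il6ra with Gm42809, Stat3 with Stat5a) and close copies are uncertain. Dividing by what 1 read is worth gave back whole reads: 100.0% of values were whole to within 0.001 reads even where that share was lowest. For 1 mouse a read was worth so close to 1 normalized count that the step could not by itself show the unit. All columns matched a mouse, and 42929 of 43411 genes (98.89%) had a symbol in the GRCm38 annotation.

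Genes with a mean above 3 were tested with limma 3.58.1 (mean-variance trend, R 4.3.3) on log2(normalized count + 1), all 5 groups in 1 fit, in 8 comparisons, with adjusted p from Benjamini-Hochberg over the 17037 genes. The criteria follow the study's methods. Intervals cover 95%. Alternatives were a pseudocount of 0.1, no filter, no fold threshold, TMM rescaling, 2 groups only, the replicate number as a block, edgeR 4.0.16 and DESeq2 1.42.0 on recovered reads, and 42 mice. The fits were tested on simulated data. Python 3.11.15 was used for summaries.

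The members, lists and comparisons were chosen with earlier results of these data known. Beside the members, the text names up to 3 called non-members per list with the largest fold change at each bleomycin time, and the 2 genes most like each member. Some genes that this rule names are not reported here. Genes named outside this rule are stated or belong to counts of 5 or fewer. Jak2, Ly6g and Tchh were not analysed here, and Ctf2 and Il31 were below the filter.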

Additional observations from a re-analysis of the deposited data

Results flagged for a closer look

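In 50 groups (10 members in 5 groups), 7 had 1 mouse farther from the others than Dixon's 95% limit allows, and chance gives about 1 in 20 groups. Of the 7, 3 were saline mouse 1, which had the lowest Osmr (277 normalized counts, with the next mouse at 489), the lowest Il6ra (495, next 954) and the highest Il11ra1 (3191, next 1904). In the group with 2 weeks of bleomycin, mouse 2 had the lowest Osmr at 437 (next 667) and mouse 1 had Il11 at 0 (next 2.18). Mouse 2 of that group also had the highest neutrophil marker level of its group, a mean log2 value of 9.6 against 5.35 to 8.6 in the others, and saline mouse 1 had an anagen hair follicle level of 14.76 against 8.06 to 13.3. Whether these levels bear on Osmr, Il6ra or Il11ra1 was not tested. In the recovery groups, mouse 4 at 6 weeks had Il11 at 10.3 (next 4.94), and mouse 4 at 10 weeks had Lif at 79.3 (next 58.5).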

How the results depend on the processing

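Of 720 log2 fold changes recomputed (10 members in 8 comparisons under 9 alternatives), 680 kept their direction and their side of the threshold, 12 passed it once the fold threshold was dropped, 3 failed it, and 25 changed sign, none of them a called value. With a pseudocount of 0.1, Il6 at 6 weeks of recovery against 4 weeks of bleomycin lost its call (-1.8, adjusted p = 0.0624). The filter, TMM, fits of 2 groups, edgeR and DESeq2 changed no member's call in the 8 comparisons. Without the fold threshold, called members numbered 7 in each bleomycin group, 1 in the first recovery group, and 5 and 6 for the recovery groups against 4 weeks of bleomycin. Called pathway genes then numbered 36, 30, 3, 20 and 27, and 4 between the bleomycin groups. Over all 17037 genes tested, the same setting called 6063 and 6242 in the bleomycin groups and 1547 in the first recovery group. It called 4260 and 5576 for the recovery groups against 4 weeks of bleomycin, and 956 between the bleomycin groups. The 1 pathway call between 2 and 4 weeks became 0 with a pseudocount of 0.1, with 2 groups only and in 42 mice, and 2 with edgeR and DESeq2. In 42 mice pathway calls at 6 weeks of recovery were 2, and DESeq2 called 1 between the recovery groups. In 42 mice the lost calls were Il11ra1 at 2 weeks (-0.56) and Osmr at 4 weeks (0.56). Signs turned there for Il11 (-0.09 at 4 weeks, and -0.1 and -0.01 in recovery), Il6ra (-0.02 at 4 weeks), Il6st (-0.04 at 4 weeks and -0.07 late in recovery), Osm (-0.03) and Stat3 (-0.02), the last 2 late in recovery, and for Osm (0.14) and Il6st (-0.05) between the bleomycin groups, where Il6st was -0.02 with edgeR and DESeq2. At 10 weeks of recovery Osm was -0.07 with edgeR and -0.07 with DESeq2, and Il6st -0.02 and -0.01. Against 4 weeks of bleomycin, at 6 weeks of recovery Il11 was 0.04 with edgeR and 0.05 with DESeq2, and Lif was -0.01 with TMM, -0.03 with edgeR and -0.02 with DESeq2. The causes were not tested.

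Replicate numbers are shared between groups of different animals. The 78 same-number pairs had a median r of -0.002 (-0.691 to 0.38). For 690 pairs of different number and group it was -0.004 (-0.651 to 0.642). Number 8 had the highest median, 0.106 in 6 pairs. The pooled medians showed no pairing by number, but they cannot exclude shared handling of some numbers. With the replicate block, Osm at 10 weeks of recovery turned to -0.01. Against 4 weeks of bleomycin, Il11 turned to 0.1 and Lif to -0.03 at 6 weeks of recovery, and Il6st to 0.0 at 10 weeks. The block changed no member's call in the 8 comparisons. At a few reads per mouse, depth limits what can be said of Il6 in saline skin and of Il11.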
